A study of Mus musculus with 12 samples.

Results

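The transcription factors of retinal ganglion cells (RGC) described here are the POU-domain factors Pou4f1, Pou4f2 and Pou4f3, the LIM-homeodomain factors Isl1 and Isl2, the early B-cell factors Ebf1 and Ebf3, the T-box factor Tbr1, the Iroquois factor Irx2 and the Krüppel-like factor Klf7. They were chosen by gene symbol, with earlier results of these data known, as 10 of the 54532 genes in the tables. All 10 passed the filter on low counts that kept 18299 genes. Retinal RNA was measured in 12 libraries from wild-type C57BL/6 mice at 13 weeks of age. The 3 SHAM libraries came from control mice. The 3 MOG libraries came from mice immunized with MOG35-55, a peptide of myelin oligodendrocyte glycoprotein that causes experimental autoimmune encephalomyelitis (EAE) with optic neuritis. The 3 GB20 and the 3 GV16 libraries came from mice that were immunized in the same way and then needled, either at acupoint GB20 or at GV16, the control acupoint. By the methods of the study, the mice were female, the needled mice were anesthetized for each session, and each group held a few mice in each repeat of the experiment. The peptide was given in complete Freund's adjuvant with Mycobacterium tuberculosis, and pertussis toxin was given too. Whether SHAM mice received these without the peptide is not stated, so comparisons with SHAM cannot be read as effects of the peptide alone. Whether 1 library pools several mice is not stated, so p-values measure the spread between these libraries.

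RGC are the output neurons of the retina, and their axons form the optic nerve, the tissue that is inflamed in optic neuritis. During development, Pou4f2 and Isl1 act together downstream of Atoh7 to switch on the genes of the RGC fate, while Pou4f1 and Pou4f3 shape the dendrites and axons of RGC subtypes. Isl2, Tbr1, Irx2, Ebf1 and Ebf3 mark subsets of RGC, and Klf7 favours axon growth. Several of the factors are not restricted to RGC in the retina. Isl1 is also made by starburst amacrine cells and ON bipolar cells, and Ebf1 and Ebf3 by other amacrine cells.

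Total counts per library ranged from 15860278 to 19194280. The tissue carried the markers of a whole retina. The summed level of 8 rod genes was 51870 to 58020 CPM (counts scaled to a common library size by TMM), that of 12 bipolar genes 1925 to 2152 CPM, and that of 8 general RGC genes (Rbpms, Rbpms2, Slc17a6, Thy1, Sncg, Nrn1, Stmn2 and Tubb3) 312.5 to 576.1 CPM. No marker of these 3 lists was at 0 in any group. The 10 lymphocyte markers summed to 1.12 to 2.60 CPM in all, and no gene of that list passed the filter.

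Per gene length, the factors spanned a wide range of levels in SHAM retinas. Isl1 was the most abundant at 22.4 ± 0.749 fragments per kilobase scaled by depth (FPKM, mean ± SD, n = 3), and Pou4f1 followed at 6.98 ± 0.804 FPKM. Neither overlapped its neighbour in the order. Ebf3 (4.04 ± 0.290 FPKM), Pou4f2 (3.44 ± 0.650), Isl2 (3.01 ± 0.269), Ebf1 (2.67 ± 0.426), Klf7 (2.27 ± 0.386) and Pou4f3 (2.16 ± 0.293) formed a series in which each overlapped the next. Irx2 (1.14 ± 0.122 FPKM) and Tbr1 (0.701 ± 0.105 FPKM) lay below them, apart from each other. In MOG retinas the order changed. Ebf3, at 3.47 ± 0.214 FPKM, and Pou4f1, at 3.43 ± 0.786 FPKM, overlapped at ranks 2 and 3, and Klf7 came next at 2.52 ± 0.172 FPKM, ahead of Ebf1, Pou4f2, Isl2 and Pou4f3. Isl1 stayed first and Irx2 and Tbr1 last in all 4 groups.

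**Figure D1:**
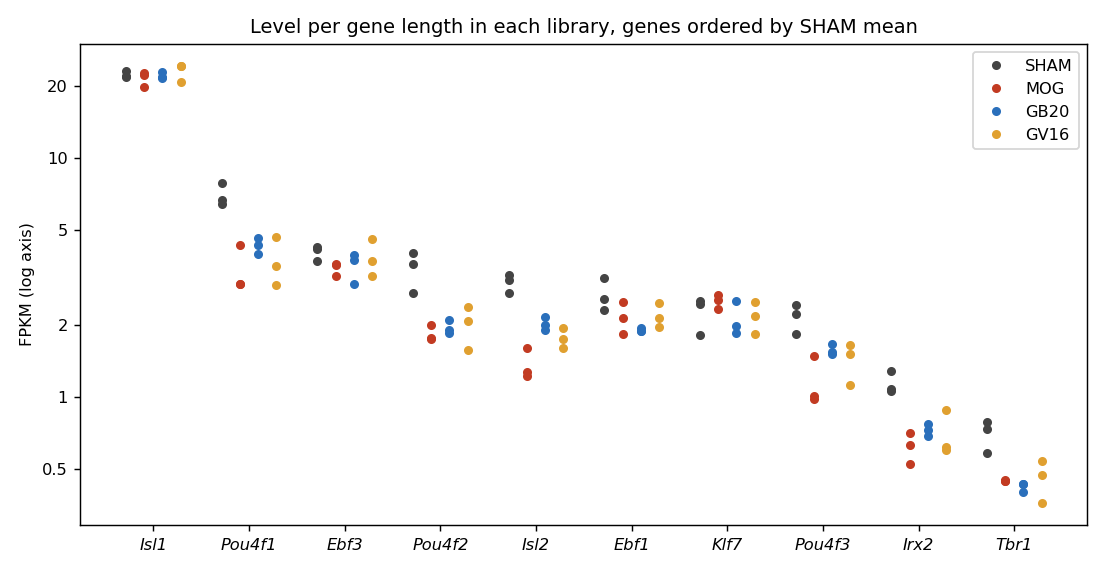
Level of each factor per gene length (FPKM, log axis) in each library, with genes ordered by their SHAM mean and colours for the 4 groups. Isl1 lies between 19.8 and 24.3 FPKM in every library, and Pou4f1 and Ebf3 overlap in MOG and GV16 but not in SHAM.

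The first comparison asked which factors changed in the retina after immunization. In MOG vs. SHAM, 5 of the 10 factors were lower (Pou4f1, Pou4f2, Pou4f3, Isl2 and Irx2), and 0 were higher. Of all genes tested, 0.771% were lower and 1.34% changed in either direction at the same threshold, a Benjamini-Hochberg adjusted p under 0.05 from edgeR's quasi-likelihood fit. The log2 fold change was below 0 for 9 of the 10 factors, with a median of -0.77 against -0.0023 over all genes tested. At an unadjusted p under 0.05 there were 7 factors, against 13% of all genes. In 7 factors every MOG library lay below every SHAM library, against 8.34% of the genes. Since the factors were chosen with earlier results of these data known, these shares are not an independent measure. Across 12277 genes, which are not independent, the log2 fold change had a Spearman's rho of 0.342 with gene length. The libraries of a group differed in this. The slope of log2 CPM, as deviation from the gene's mean, per doubling of length was -0.0955 in SHAM replicate 2. It was -0.0015 and 0.0464 in SHAM replicates 1 and 3, and 0.0132 to 0.0334 in MOG, within the range of SHAM. Isl2, Pou4f3, Pou4f2 and Irx2, at 2207 to 3304 bases, are the shortest of the factors, and all were called lower. With a gene length offset in edgeR 5 factors were again lower, and the part of length was not tested further. In bulk retina, fewer RGC and less RNA per RGC cannot be told apart.

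Pou4f1 (Brn3a; ENSMUSG00000048349, chr14:104461676-104467999 on the minus strand of GRCm38) marks most RGC of the adult retina. Its level was 37.2, 30.1 and 31.4 CPM in the 3 SHAM libraries and 20.3, 14.1 and 14.0 CPM in the 3 MOG libraries. The groups were far apart, although MOG replicate 1 kept more Pou4f1 than the other two. The log2 fold change was -1.03 (SE 0.158, edgeR adjusted p = 0.00239), a decrease of 50.9%.

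Pou4f2 (Brn3b; ENSMUSG00000031688, chr8:78433010-78436645, minus strand), the factor needed for RGC to differentiate and survive, measured 13.0, 8.82 and 11.6 CPM in SHAM and 6.44, 5.71 and 5.64 CPM in MOG. The lowest SHAM library was still above the highest MOG library. The log2 fold change was -0.90 (SE 0.161, edgeR adjusted p = 0.00297).

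The 3 genes of the POU4 family resemble each other in the part that encodes the POU domain, so reads could in principle be placed on the wrong gene. The 120 bases of coding sequence shown here surround the longest run that Pou4f1 and Pou4f2 share. They are bases 847 to 966 of 1263 coding bases in Pou4f1 and bases 817 to 936 of 1233 in Pou4f2. Capitals mark the 8 of 120 positions at which they differ, which leaves 93.3% identity. Sequences are 5′ to 3′ from GENCODE vM21 transcripts.
Pou4f1: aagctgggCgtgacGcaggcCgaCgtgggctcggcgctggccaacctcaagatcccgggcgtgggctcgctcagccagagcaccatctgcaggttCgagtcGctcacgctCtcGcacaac
Pou4f2: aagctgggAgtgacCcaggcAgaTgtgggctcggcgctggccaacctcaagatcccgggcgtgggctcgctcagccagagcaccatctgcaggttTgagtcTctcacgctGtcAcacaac
The longest run of bases shared by transcripts of the pair was 71 bases. It was 41 bases for Pou4f1 and Pou4f3 and 35 bases for Pou4f2 and Pou4f3. By the methods of the study, the paired reads were longer than each of these runs, so a full-length read reaches beyond them. How reads that aligned to several places were counted is not given in the sources used here, and misplaced reads were not tested for.

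Pou4f3 (Brn3c; ENSMUSG00000024497, chr18:42394539-42397249, plus strand), found in a smaller set of RGC and known also for its role in hair cells of the inner ear, measured 5.75, 5.29 and 4.38 CPM in SHAM and 3.53, 2.33 and 2.40 CPM in MOG. The groups did not overlap, with MOG replicate 1 again the highest of its group. The log2 fold change was -0.89 (SE 0.202, edgeR adjusted p = 0.0243). This call was lost when certain single libraries were left out, which also leaves fewer libraries to test. Over all runs without 1 library the log2 fold change was -1.12 to -0.78. Leaving out SHAM replicate 1 raised the edgeR adjusted p to 0.131, leaving out SHAM replicate 2 to 0.0502, leaving out MOG replicate 2 to 0.185 and leaving out MOG replicate 3 to 0.172.

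Isl2 (ENSMUSG00000032318, chr9:55538672-55546180, plus strand) marks RGC that project to the opposite side of the brain. It measured 6.84, 6.00 and 7.16 CPM in SHAM and 3.53, 2.70 and 2.82 CPM in MOG. The distance between the groups was larger than the spread within either one. Its log2 fold change was -1.14 (SE 0.168, edgeR adjusted p = 0.00057), the largest decrease among the 10 factors.

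Its paralog Isl1 (ENSMUSG00000042258, chr13:116298281-116309689, minus strand) measured 92.8, 87.2 and 88.2 CPM in SHAM and 88.6, 90.5 and 78.9 CPM in MOG. These ranges overlapped, and the log2 fold change was -0.06 with a 95% confidence interval of -0.21 to 0.10 (edgeR adjusted p = 0.792). It did not overlap the interval of Isl2, which was -1.49 to -0.79. The markers of other cells that make Isl1 were at similar levels in both groups. The 7 starburst amacrine genes summed to 117 to 138.4 CPM in SHAM and 124.6 to 135.4 CPM in MOG, and the 12 bipolar genes to 1934 to 2091 CPM in SHAM and 2036 to 2149 CPM in MOG. Their part in the level of Isl1 was not tested.

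These paralogs share a shorter run than Pou4f1 and Pou4f2, and their unequal values are shown beside the sequences that separate them. The stretch shown spans coding bases 505 to 624 of Isl1 and 535 to 654 of Isl2, around their longest shared run. Capitals mark the 17 of 120 positions that differ (85.8% identity), and the longest run shared by their transcripts was 23 bases.
Isl1: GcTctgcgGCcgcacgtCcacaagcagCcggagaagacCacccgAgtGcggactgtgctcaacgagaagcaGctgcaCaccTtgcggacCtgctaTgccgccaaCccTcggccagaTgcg
Isl2: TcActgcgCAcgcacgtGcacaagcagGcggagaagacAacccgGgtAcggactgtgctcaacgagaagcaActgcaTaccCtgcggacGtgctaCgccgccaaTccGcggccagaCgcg

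Irx2 (ENSMUSG00000001504, chr13:72628820-72634198, plus strand), an Iroquois homeodomain factor, measured 4.24, 3.59 and 3.496 CPM in SHAM and 2.07, 2.33 and 1.74 CPM in MOG. The groups did not overlap. Only 29 to 70 reads per library stood behind these 6 values. The log2 fold change was -0.88 (SE 0.214, edgeR adjusted p = 0.0387), close to the threshold. DESeq2 on all 12 libraries gave an adjusted p of 0.0594. Leaving out SHAM replicate 1 or 2, any of the MOG libraries, or GB20 replicate 1 or 3 also took the call away, with adjusted p-values from edgeR of 0.0508 to 0.256.

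Tbr1 (ENSMUSG00000035033, chr2:61802930-61814114, plus strand), a T-box factor that specifies a group of RGC, measured 4.36, 3.23 and 4.05 CPM in SHAM and 2.46 CPM in each of the 3 MOG libraries. All MOG libraries were below all SHAM libraries, but the log2 fold change of -0.66 (SE 0.203) did not pass (edgeR adjusted p = 0.139). Tbr1 had 40 to 73 reads in these 6 libraries.

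The early B-cell factors, which bind DNA as dimers and act in neuronal differentiation, showed smaller differences. Ebf1 (ENSMUSG00000057098, chr11:44617317-45008091, plus strand) measured 30.9, 22.7 and 25.4 CPM in SHAM and 24.4, 21.1 and 18.1 CPM in MOG. Ebf3 (ENSMUSG00000010476, chr7:137193673-137314445, minus strand) measured 38.9, 34.5 and 39.5 CPM in SHAM and 33.4, 33.4 and 29.96 CPM in MOG. Ebf1 overlapped between the groups, and Ebf3 did not. Their log2 fold changes were -0.31 (95% confidence interval -0.56 to -0.06, edgeR adjusted p = 0.262) and -0.22 (-0.46 to 0.02, adjusted p = 0.416).

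Klf7 (ENSMUSG00000025959, chr1:64029447-64122282, minus strand) was the only factor with a log2 fold change above 0. It measured 20.2, 14.9 and 20.7 CPM in SHAM and 21.9, 19.2 and 20.8 CPM in MOG. The groups overlapped, and the log2 fold change was 0.15 (95% confidence interval -0.13 to 0.43, edgeR adjusted p = 0.666). The value is uncertain, because 39.3% of its exon bases overlap Gm26649 on the opposite strand, and the strand setting of the counting is not given in the sources used here. For Ebf3 that share was 3.85%, with Gm45278.

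**Figure D2:**
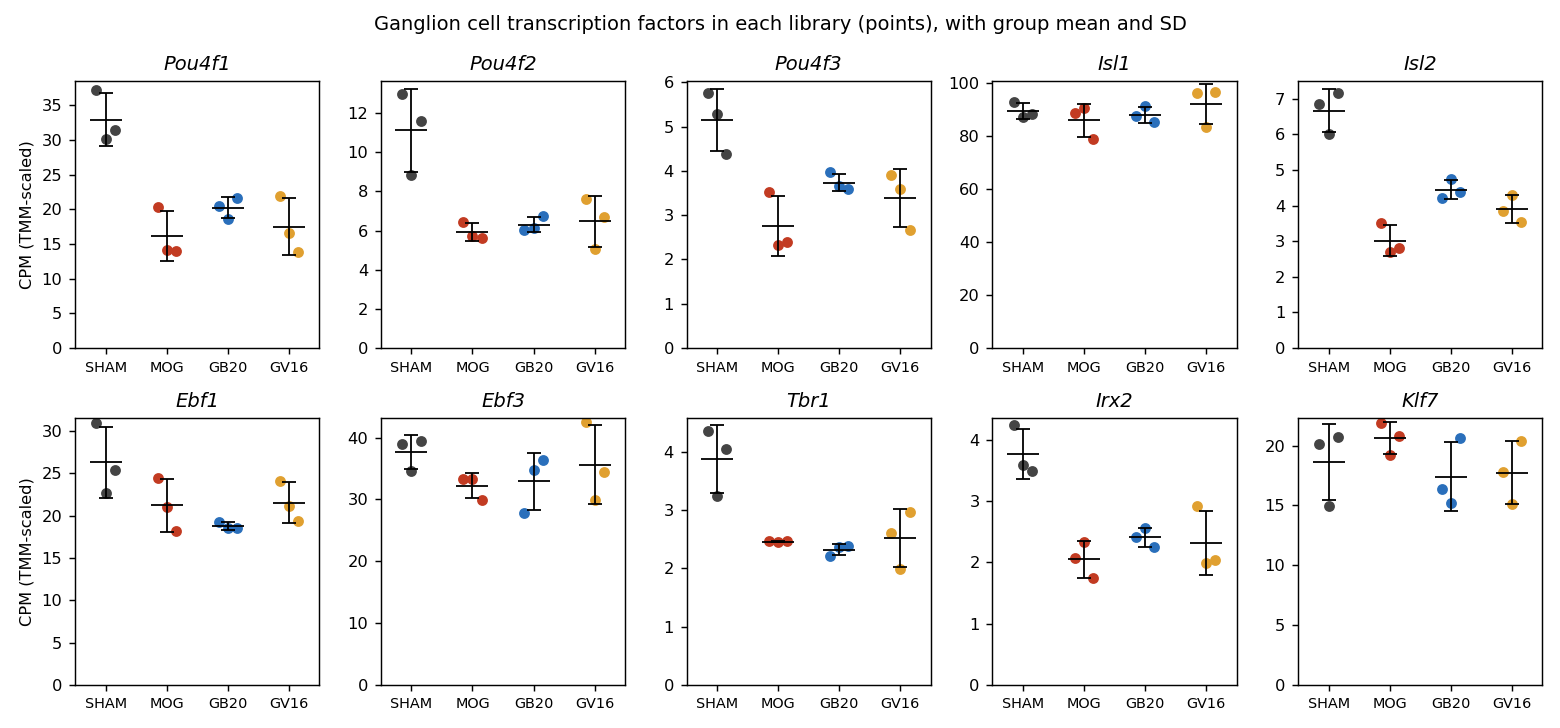
CPM of each factor in each of the 12 libraries, 1 panel per gene with an axis from 0. Points are libraries, and black bars are group means with SD (n = 3). All MOG points lie below all SHAM points in 7 panels (Pou4f1, Pou4f2, Pou4f3, Isl2, Ebf3, Tbr1 and Irx2).

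Other genes of RGC were lower in the same libraries. All 8 general RGC genes were lower in MOG than in SHAM, as were 8 of the 10 genes of RGC axons and filaments. Among these, Uchl1, a deubiquitinase abundant in neurons, had a log2 fold change of -0.83 (SE 0.0932, edgeR adjusted p = 2.47e-05). Nefl, the neurofilament light chain, had one of -0.94 (SE 0.103, adjusted p = 3.48e-05). Sncg, gamma-synuclein, had one of -0.93 (SE 0.114, adjusted p = 0.000148), and Chrna6, a nicotinic receptor subunit, one of -0.59 (SE 0.0797, adjusted p = 0.000186). The medians were -0.61 over the 8 general genes and -0.71 over the 10 axon genes. Among 12 amacrine markers 1 was lower (Calb2, calretinin, which RGC also make), and 0 were higher. Their sum was 1521 to 1586 CPM in SHAM and 1356 to 1556 CPM in MOG. The 8 microglia markers summed to 19.6 to 27.2 CPM in SHAM and 34.0 to 38.3 CPM in MOG, and 2 of them were higher (Csf1r and C1qa). Their part in the lower factors was not tested.

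Since general RGC genes were lower in the same libraries, each factor was also expressed relative to the mean log2 CPM of the 8 general RGC genes. That mean was 5.83 ± 0.0941 in SHAM and 5.13 ± 0.129 in MOG (SD, n = 3), a difference of -0.70. Relative to it, Isl2 differed by -0.45 and Pou4f1 by -0.35 on the log2 scale, and in both the MOG libraries lay below all SHAM libraries (exact permutation p = 0.1, the smallest that 3 against 3 libraries allow, and 0.167 after Benjamini-Hochberg adjustment over the 10 factors). For Pou4f1 they lay only barely apart, with the highest MOG library at -0.936 and the lowest SHAM library at -0.923. For Isl2 these values were -3.46 and -3.25. Pou4f3 (-0.22), Pou4f2 (-0.20), Irx2 (-0.19) and Tbr1 (0.05) overlapped between the groups. Ebf1 (0.39), Ebf3 (0.47), Isl1 (0.64) and Klf7 (0.86) lay higher in every MOG library than in any SHAM library, with the same exact permutation p of 0.1. With 3 libraries per group, no such difference can reach 0.05. The general RGC genes were called in the same contrast, so the zero line is not independent of it. Because this reference was itself lower in MOG, a factor of unchanged level lies higher on this scale. None of Ebf1, Ebf3, Isl1 and Klf7 was called in MOG vs. SHAM, so these values do not show a rise within RGC. The share of all genes whose groups are apart on this scale was not computed.

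**Figure D3:**
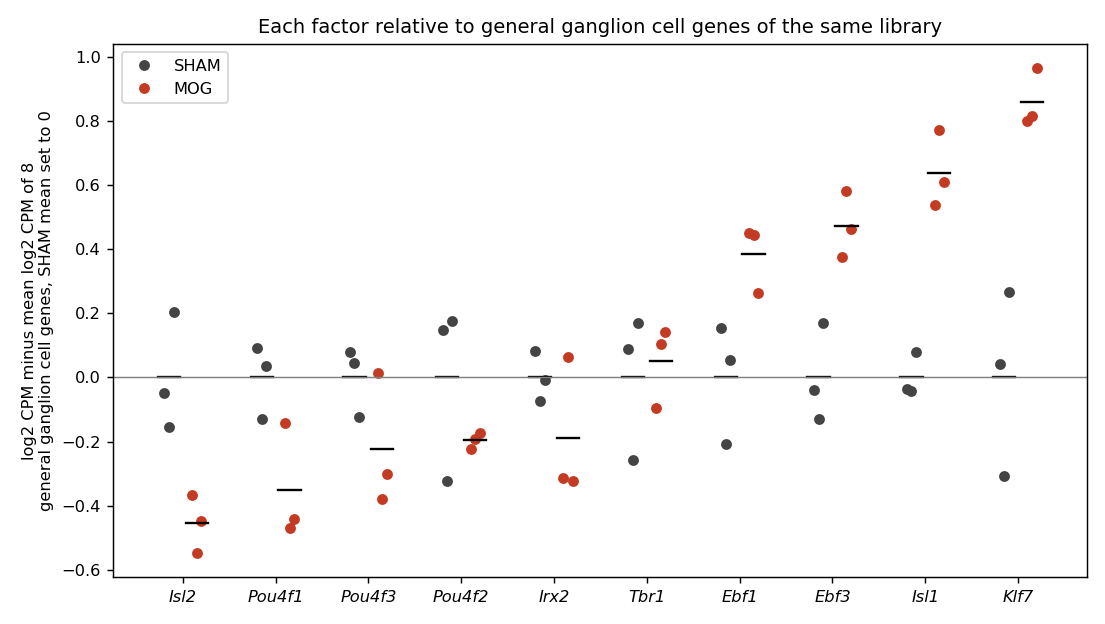
log2 CPM of each factor minus the mean log2 CPM of 8 general RGC genes in the same library, with the SHAM mean of each factor set to 0. Points are the 3 SHAM and 3 MOG libraries and black bars their means. The means in MOG run from -0.45 for Isl2 to 0.86 for Klf7. The reference was lower in MOG, so a factor of unchanged level lies above 0.

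Of 40 other transcription factors known from RGC, 38 were tested (Dlx1 and Dlx2 were filtered out). In MOG vs. SHAM, 2 of them were lower and 0 were higher, with a median log2 fold change of -0.14. Both were Iroquois genes. Irx4 measured 6.78, 5.76 and 6.60 CPM in SHAM and 4.20, 3.93 and 2.64 CPM in MOG, with a log2 fold change of -0.83 (SE 0.182, edgeR adjusted p = 0.0189). Irx6 measured 17.9, 18.4 and 15.98 CPM in SHAM and 12.8, 13.0 and 11.3 CPM in MOG, with one of -0.49 (SE 0.118, edgeR adjusted p = 0.0365). In neither gene did the groups overlap. Both calls were lost when certain single libraries were left out, which also leaves fewer libraries to test. Over all runs without 1 library the log2 fold change was -0.96 to -0.64 for Irx4 and -0.55 to -0.43 for Irx6. For Irx4 the edgeR adjusted p rose to 0.0914 when SHAM replicate 1 was left out, to 0.0634 for MOG replicate 2 and to 0.188 for MOG replicate 3. For Irx6 it was 0.0662 to 0.257 when SHAM replicate 1 or 2 or any of the MOG libraries was left out. The other paralogs of the factors did not pass the test. Irx1, at under 1 CPM, had a log2 fold change of -1.38 (SE 0.485), Irx3 one of -0.26, Irx5 one of -0.14, Ebf2 one of 0.12 and Ebf4 one of -0.01. In the other 5 comparisons, 0 of the 38 were called.

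Next, the needled groups were compared with MOG. In GB20 vs. MOG, 0 of the 10 factors were called by edgeR, against 0.24% of all genes, and 2 had an unadjusted p under 0.05 (Isl2 and Pou4f3), against 8% of all genes. Isl2 measured 4.22, 4.74 and 4.39 CPM in GB20, above the 3.53, 2.70 and 2.82 CPM of MOG and below all SHAM libraries. Isl2 and Pou4f3 were the 2 factors with every GB20 library above every MOG library, against 7.96% of all genes. In 1 factor, Tbr1, every GB20 library lay below every MOG library, against 7.71% of all genes. For Isl2 the log2 fold change was 0.55 (95% confidence interval 0.19 to 0.92, edgeR adjusted p = 0.363). Pou4f3 measured 3.97, 3.65 and 3.59 CPM in GB20, with a log2 fold change of 0.44 (0.0049 to 0.87, adjusted p = 0.621). Pou4f1 measured 20.5, 18.6 and 21.7 CPM in GB20, which overlapped MOG (log2 fold change 0.33, -0.02 to 0.67, adjusted p = 0.636). Pou4f2, at 6.03, 6.14 and 6.76 CPM, was within 0.09 of MOG on the log2 scale (-0.26 to 0.44). Tbr1 measured 2.22, 2.37 and 2.38 CPM in GB20, barely under the 2.46 CPM of the MOG libraries (log2 fold change -0.09, -0.53 to 0.36, adjusted p = 0.934).

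Gene length also moved with this comparison. Across 12277 genes the log2 fold change in GB20 vs. MOG had a Spearman's rho of -0.365 with gene length, over genes, which are not independent. The slope per library was -0.0383, -0.0429 and 0.0201 in GB20 and 0.0132 to 0.0334 in MOG, so GB20 replicate 3 lay within the range of MOG. Isl2 (2207 bases) and Pou4f3 (2375 bases) are the shortest of the 10 factors. With a gene length offset the log2 fold changes in GB20 vs. MOG were 0.50 for Isl2 (edgeR adjusted p = 0.425) and 0.39 for Pou4f3 (adjusted p = 0.648), and neither was called with or without it. All 8 general RGC genes also had a log2 fold change above 0 in GB20 vs. MOG, with a median of 0.18, and 0 of them were called by edgeR, with 2 at an unadjusted p under 0.05. The part of either in the values of Isl2 and Pou4f3 was not tested further.

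In GV16 vs. MOG, 0 of the 10 factors were called by edgeR, against 0.164% of all genes, and 0 had an unadjusted p under 0.05, against 5.3%. In 1 factor, Isl2, every GV16 library lay above every MOG library, against 6.17% of all genes. DESeq2 on all 12 libraries, DESeq2 on the 6 libraries compared and limma-voom also called 0 factors in both needled groups vs. MOG. Isl2 measured 3.85, 4.31 and 3.53 CPM in GV16, just above the MOG libraries (log2 fold change 0.36, 95% confidence interval -0.01 to 0.73, edgeR adjusted p = 0.957). Pou4f1 was spread widely in GV16, at 21.98, 16.7 and 13.9 CPM, and overlapped MOG (0.11, -0.23 to 0.46). Both comparisons use the same 3 MOG libraries, so they are not independent.

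GB20 and GV16 were compared directly. Of the 10 factors, 0 were called by edgeR, against 0.00546% of all genes, and 0 had an unadjusted p under 0.05, against 2.93%. The log2 differences ran from -0.20 for Ebf1 to 0.21 for Pou4f1. Ebf1 was the only factor whose libraries did not overlap, and only barely, at 19.27, 18.5 and 18.5 CPM in GB20 and 24.2, 21.1 and 19.32 CPM in GV16, against 4.32% of all genes with GB20 wholly lower. For Isl2 the difference was 0.19 with a 95% confidence interval of -0.16 to 0.54, and for Pou4f1 it was 0.21 with one of -0.13 to 0.55. These intervals leave room for differences of either sign.

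Finally, the needled groups were set against SHAM, which all 3 immunized groups share as control. In GB20 vs. SHAM, 1 factor was lower (Pou4f2), against 0.18% of all genes lower and 0.344% changed in either direction, and 7 had an unadjusted p under 0.05, against 9.06%. In 7 factors every GB20 library lay below every SHAM library, against 7.09% of all genes. Pou4f2 had a log2 fold change of -0.82 (SE 0.16, edgeR adjusted p = 0.0207). The adjusted p was 0.196 without SHAM replicate 1, 0.062 without SHAM replicate 3, 0.167 without GB20 replicate 1 and 0.0692 without GB20 replicate 2. Pou4f1 (-0.70, adjusted p = 0.0658) and Ebf1 (-0.49, adjusted p = 0.0828) just missed the threshold, while Tbr1 (-0.74), Irx2 (-0.64), Isl2 (-0.58) and Pou4f3 (-0.46) had adjusted p-values of 0.132 to 0.475. Same-numbered SHAM and GB20 libraries deviated together (r of 0.181 to 0.481), but so did SHAM 1 with GB20 3 (0.188), and the labels name no batch. As an alternative, with the replicate number as a block in edgeR, 3 factors were lower. They were Pou4f1 (-0.70, adjusted p = 0.00166), Pou4f2 (-0.81, adjusted p = 0.00435) and Ebf1 (-0.48, adjusted p = 0.0123).

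In GV16 vs. SHAM, 3 factors were lower, against 0.432% of all genes lower and 0.656% changed in either direction, and 7 had an unadjusted p under 0.05, against 10.9%. In 6 factors the groups did not overlap, all lower in GV16, against 7.6% of all genes. The 3 called were Pou4f1 (log2 fold change -0.91, SE 0.157, edgeR adjusted p = 0.0101), Pou4f2 (-0.78, SE 0.161, adjusted p = 0.0193) and Isl2 (-0.78, SE 0.164, adjusted p = 0.0246). None of the 3 was called without SHAM replicate 1 (adjusted p of 0.0734, 0.157 and 0.114), without GV16 replicate 2 (0.0867, 0.176 and 0.0577) or without GV16 replicate 3 (0.0718, 0.108 and 0.201). Isl2 was also lost without SHAM replicate 3 (0.0565) and without GV16 replicate 1 (0.0534). Irx2 (-0.70), Tbr1 (-0.62) and Pou4f3 (-0.60) did not pass, with adjusted p-values of 0.161 to 0.218, although their GV16 libraries lay below all SHAM libraries. Isl1 stayed within 0.05 of SHAM on the log2 scale in GB20 and GV16, at -0.02 (95% confidence interval -0.18 to 0.13) and 0.04 (-0.11 to 0.20).

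The general RGC genes moved with the factors in the needled groups as well. All 8 were lower in GV16 than in SHAM (median log2 fold change -0.65), and in GB20 vs. SHAM 2 of the 8 were lower, while all 8 had a log2 fold change below 0 (median -0.50). Their mean log2 CPM was 5.35 ± 0.0097 in GB20 and 5.18 ± 0.273 in GV16 (SD, n = 3). Relative to that mean, Isl2 differed from SHAM by -0.12 in GV16 and by -0.10 in GB20, and it overlapped SHAM in both. Pou4f2 also overlapped, at -0.13 in GV16 and -0.32 in GB20. Pou4f1 differed by -0.28 in GV16, with all libraries below those of SHAM (exact permutation p = 0.1, adjusted 0.2 over the 10 factors), and by -0.22 in GB20, where it overlapped. Irx2 was the only factor with every GB20 library below every SHAM library on this scale (-0.17, exact permutation p = 0.1, adjusted 0.333). These groups lay only barely apart, with the highest GB20 library at -4.01 and the lowest SHAM library at -3.99. Isl1 lay wholly above SHAM in GB20 (0.46), and so did Isl1 (0.69), Klf7 (0.59), Ebf3 (0.56) and Ebf1 (0.37) in GV16. As in MOG, a lower reference places a factor of unchanged level higher. The share of all genes apart on this scale was not computed.

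**Figure D4:**
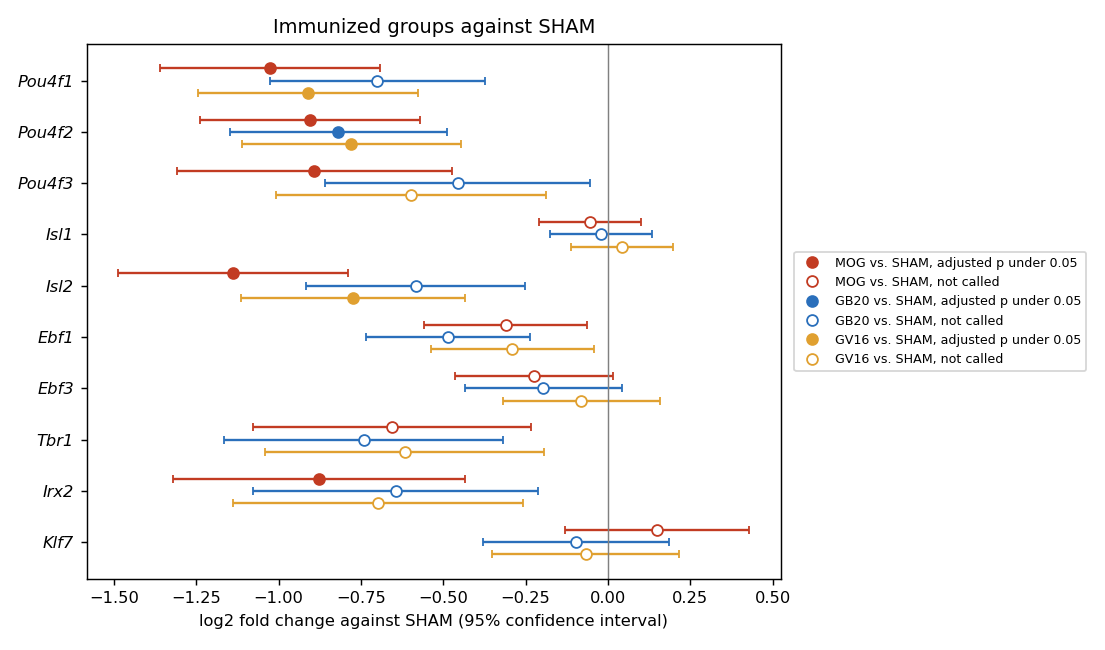
log2 fold change of each factor against SHAM in MOG, GB20 and GV16, with 95% confidence intervals from edgeR. Filled points passed an adjusted p of 0.05, open points did not, and the 3 groups share the same SHAM libraries. Isl1 lies near 0 in all 3 groups, and the 3 intervals of each factor overlap.

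The genes whose levels followed the 5 lower factors most closely were sought among 16041 genes of at least 1 CPM. The measure was the Pearson correlation of log2 CPM with the mean z-score of Pou4f1, Pou4f2, Pou4f3, Isl2 and Irx2 over the 12 libraries. Chrna6 came first (r = 0.99), followed by Nefl (0.979), Tubb3, a neuronal tubulin, (0.979), the sulfotransferase Sult4a1 (0.972) and Uchl1 (0.97). After the group means were taken out, r was 0.97 for Chrna6 and 0.809 to 0.877 for the other four. These values are a description, since the libraries fall into groups and share their depth and dissection. The profile itself was 1.11 to 1.77 in SHAM, -1.24 to -0.38 in MOG, -0.11 to -0.09 in GB20 and -0.80 to 0.17 in GV16. Its 5 factors were those called lower in MOG vs. SHAM in these same libraries, so that choice fixes the order of SHAM and MOG and favours values above MOG in the needled groups, and 0 of the 5 were called in GB20 vs. MOG or GV16 vs. MOG.

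The proximal promoters of the factors were compared by their letters. RefSeq entries on GRCm38.p6 existed for 9 of the 10 factors, and the 250 bases before the start are shown for 3 that were lower in MOG and for Ebf3, which was not called. These 4 windows hold no annotated exon. The values of the other windows follow. Among those, the windows of Isl2, Isl1, Tbr1, Klf7 and 1 entry of Ebf1 overlap annotated exons. Capitals mark the GC box GGGCGG, the homeodomain core TAATTA and the E-box CAGCTG, each searched on both strands, with overlapping matches run together.
Pou4f1, chr14:104468000-104468249, minus strand: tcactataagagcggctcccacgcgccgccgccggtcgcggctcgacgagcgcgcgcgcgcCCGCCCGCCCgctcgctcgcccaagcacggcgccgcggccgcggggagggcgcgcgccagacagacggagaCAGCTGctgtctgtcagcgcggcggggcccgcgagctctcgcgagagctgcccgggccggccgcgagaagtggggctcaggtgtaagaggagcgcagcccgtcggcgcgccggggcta
Pou4f2, chr8:78436648-78436897, minus strand: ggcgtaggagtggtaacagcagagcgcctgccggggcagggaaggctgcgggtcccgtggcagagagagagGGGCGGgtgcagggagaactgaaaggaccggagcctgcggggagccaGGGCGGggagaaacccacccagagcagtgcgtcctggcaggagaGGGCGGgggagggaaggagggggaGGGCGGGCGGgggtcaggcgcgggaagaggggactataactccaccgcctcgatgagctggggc
Irx2, chr13:72628570-72628819, plus strand: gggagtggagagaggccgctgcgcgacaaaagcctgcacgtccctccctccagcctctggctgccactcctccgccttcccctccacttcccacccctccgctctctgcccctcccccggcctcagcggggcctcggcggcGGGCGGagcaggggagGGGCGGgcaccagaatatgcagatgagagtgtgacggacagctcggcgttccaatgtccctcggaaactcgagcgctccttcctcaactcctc
Ebf3, chr7:137314446-137314695, minus strand: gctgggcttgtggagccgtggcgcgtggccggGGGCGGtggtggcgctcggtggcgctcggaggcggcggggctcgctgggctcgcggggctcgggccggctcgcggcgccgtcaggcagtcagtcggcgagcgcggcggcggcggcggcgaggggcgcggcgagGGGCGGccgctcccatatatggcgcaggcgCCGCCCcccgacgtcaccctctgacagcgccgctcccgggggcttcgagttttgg
The share of G and C was 78.0% in Pou4f1, 70.8% in Pou4f2, 68.4% in Irx2 and 66.8% in Isl2, the 4 lower factors with an entry, against a median of 52.4% over all 32851 entries. Among the factors not called in MOG vs. SHAM it spanned a wider range, with 80.0% in Ebf3, 71.2% in Isl1, 59.2% in Klf7, 45.2% in Tbr1 and at most 52.0% in the 2 entries of Ebf1. The GC box occurred 2 times in Pou4f1, 5 times in Pou4f2, 2 times in Irx2 and 1 time in Isl2, so in 4 of 4 lower factors. It was found in 3 of the 5 others, with 3 matches in Ebf3, 1 in Klf7 and 1 in Tbr1, and in neither Isl1 nor Ebf1. Of all entries, 32.7% held it. The E-box was found in Pou4f1 and Isl1, and in 13.0% of all entries. The homeodomain core was found 2 times in Tbr1, in no other factor, and in 4.84% of all entries. The matches are a description of the letters, with no test.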

How the data were processed

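Retinal RNA was sequenced as 12 libraries, 3 each from SHAM, MOG, GB20 and GV16, grouped by their labels. The authors selected polyadenylated RNA, aligned reads with HISAT2 2.0.5 to mm10 and counted them per gene, and deposited raw whole-number counts. FPKM, which the authors derived from count, gene length and depth, were deposited too. The strand setting of the counting is not given in the sources used here.

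For tests of the counts, edgeR 4.0.16 was used in R 4.3.3 (filterByExpr by group, TMM, robust quasi-likelihood fit of all 12 libraries, 8 residual degrees of freedom), with Benjamini-Hochberg adjustment over 18299 genes and a threshold of 0.05. Totals were 15860278 to 19194280 counts per library, and factors with few reads, such as Irx2 and Tbr1, have the widest intervals. FPKM served only to compare levels between genes. Symbols and positions were read from GENCODE vM21 (GRCm38). Of 54532 identifiers 54409 had a symbol, and those without took 0.0552% of the counts. Scripts were tested on simulated data. Libraries of a group differed by more than sampling noise (chi-square per gene of 3.03 to 16.5), so none was counted as a duplicate.

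The factors and all gene lists were chosen with earlier results of these data known. Named besides the 10 factors were called genes of the list of other RGC factors with the paralogs, the 4 RGC or axon genes of smallest adjusted p in MOG vs. SHAM, and the 5 genes most like the lower factors.

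Labels do not say that a replicate number marks a batch, but the experiment was repeated. Over 12277 genes, deviations of same-numbered libraries correlated at 0.181 to 0.481 for SHAM with GB20 and at 0.181 to 0.254 for SHAM with GV16. The number was therefore treated as a possible pairing of these groups. For the other 4 comparisons not every same-numbered pair exceeded 0.1. Of all 18 same-numbered pairs 8 exceeded 0.1. Of 36 pairs with different numbers 5 did, up to 0.27, among them SHAM 1 with GB20 3 (0.188). A batch by number is thus not established. Alternatives were other scalings, no filter, DESeq2 1.42.0, limma-voom (limma 3.58.1), fits of 6 libraries, a replicate block, a gene length offset and leaving out each library.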

Additional observations from a re-analysis of the deposited data

How the results depend on the processing

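The calls of Pou4f1, Pou4f2 and Isl2 in MOG vs. SHAM held under each alternative and without any 1 library, and no called factor changed direction in any alternative run. In MOG vs. SHAM, 5 factors were called, but 3 by DESeq2 and 3 by edgeR on the 6 libraries compared, and 3 to 5 without any 1 library. In GB20 vs. SHAM the count of 1 became 3 without a filter on low counts, 3 by DESeq2 on 12 libraries, 2 by DESeq2 on 6 libraries, 2 by limma-voom, 2 by edgeR on 6 libraries, 2 with a gene length offset, 3 with the replicate block, 3 with block and offset together, and 0 to 2 without any 1 library. In GV16 vs. SHAM the count of 3 became 1 by edgeR on 6 libraries and 0 to 3 without any 1 library. Relative to general RGC genes, 2 factors had every MOG library below every SHAM library, and 1 did with the axon genes as reference. Without any 1 library there were 2 to 3. Leaving out a library can only keep or raise this count, so that range is no check of it. Where a test of the counts uses fewer libraries, its fit has fewer residual degrees of freedom, and otherwise the cause was not tested.

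Counts over all genes moved more. Without the filter on low counts, 539 in place of 245 genes were called in MOG vs. SHAM, 140 in place of 44 in GB20 vs. MOG, 73 in place of 30 in GV16 vs. MOG, 8 in place of 1 in GB20 vs. GV16, 282 in place of 63 in GB20 vs. SHAM and 395 in place of 120 in GV16 vs. SHAM. DESeq2 on 12 libraries called 5 in GB20 vs. GV16, 152 in GB20 vs. SHAM and 202 in GV16 vs. SHAM. DESeq2 on 6 libraries called 126 in GB20 vs. MOG, 57 in GV16 vs. MOG, 4 in GB20 vs. GV16 and 124 in GB20 vs. SHAM. Limma-voom called 14 in GV16 vs. MOG and 2 in GB20 vs. GV16. edgeR on 6 libraries called 118 in GB20 vs. MOG, 48 in GV16 vs. MOG, 3 in GB20 vs. GV16 and 66 in GV16 vs. SHAM. The gene length offset gave 130 in GB20 vs. SHAM. Leaving out 1 library gave 91 to 427 in MOG vs. SHAM, 13 to 83 in GB20 vs. MOG, 10 to 38 in GV16 vs. MOG, 0 to 4 in GB20 vs. GV16, 14 to 116 in GB20 vs. SHAM and 23 to 231 in GV16 vs. SHAM.

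The replicate block raised the calls to 404 in MOG vs. SHAM, 73 in GB20 vs. MOG, 47 in GV16 vs. MOG, 182 in GB20 vs. SHAM and 236 in GV16 vs. SHAM. Block and gene length offset together gave 443, 90, 66, 234 and 325 in these, and 2 in GB20 vs. GV16. The block alone changed the call of no factor except Pou4f1 and Ebf1 in GB20 vs. SHAM. With the offset added, Ebf1 also passed in MOG vs. SHAM (-0.36, adjusted p = 0.019) and GV16 vs. SHAM (-0.33, adjusted p = 0.0497), and Isl1 in GB20 vs. SHAM turned from -0.02 to 0.0003. Across 12277 genes, which are not independent, Spearman's rho of the log2 fold change with gene length was 0.342 in MOG vs. SHAM, -0.365 in GB20 vs. MOG, -0.146 in GV16 vs. MOG, -0.345 in GB20 vs. GV16, 0.027 in GB20 vs. SHAM and 0.259 in GV16 vs. SHAM.

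Without 1 library, values that were near 0 and not called changed sign. Their ranges were -0.089 to 0.0063 for Isl1 in MOG vs. SHAM, -0.025 to 0.071 for Isl1 and -0.051 to 0.14 for Ebf3 in GB20 vs. MOG, -0.083 to 0.32 for Pou4f1, -0.011 to 0.27 for Pou4f2, -0.083 to 0.14 for Ebf1, -0.0036 to 0.26 for Ebf3, -0.095 to 0.18 for Tbr1 and -0.020 to 0.28 for Irx2 in GV16 vs. MOG, -0.18 to 0.10 for Pou4f2, -0.0060 to 0.26 for Pou4f3, -0.22 to 0.034 for Ebf3, -0.27 to 0.0089 for Tbr1, -0.040 to 0.26 for Irx2 and -0.17 to 0.081 for Klf7 in GB20 vs. GV16, -0.050 to 0.0061 for Isl1 in GB20 vs. SHAM, and -0.23 to 0.029 for Ebf3 and -0.20 to 0.034 for Klf7 in GV16 vs. SHAM. Depth limits Tbr1 and Irx2, with 29 to 73 reads per library.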
